A study of Caenorhabditis elegans with 45 samples.

Results

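RNAi against *par-1* in the Caenorhabditis elegans strain JU1088 was compared with the empty-vector control of the same strain, in 6 of the 45 RNA libraries of the series. The members are the 3 libraries labelled strain JU1088 with treatment PAR1 and the 3 labelled strain JU1088 with treatment CTR, so the rule uses labels and no measured value. All 6 hold whole young adult hermaphrodites, labelled adult day 1, collected when egg laying began and raised from newly hatched larvae on E. coli HT115. The labelled culture temperature was 20 °C in every library used. For the *par-1* RNAi group the bacteria made double-stranded RNA of *par-1*, and for the control group they carried the vector L4440 without an insert. JU1088 is a wild isolate, described in the study as highly competent for RNAi in the germline, and the labels give no mutant allele, transgene or other agent in any group. Each library pools many worms from its own plates of 1 experiment, so the replicates measure the spread between sets of plates. For comparison, the 3 JU1088 libraries under *pos-1* RNAi and the 24 control and *par-1* RNAi libraries of the strains N2, EG4348, CB4856 and QX1211 were used.

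PAR-1 is a serine/threonine kinase of the PAR network, which divides the cortex of the fertilized egg into an anterior and a posterior domain. It acts at the posterior, where it keeps MEX-5 and MEX-6 mobile, so that these RNA-binding proteins and the P granules end up at opposite ends of the zygote. In feeding RNAi the worm takes up double-stranded RNA through the gut, passes it on to other tissues and amplifies it into small RNAs, which Argonaute proteins use to silence the matching messenger. Loss of *par-1* from the mother's germline is lethal to the embryos, whereas the mother herself survives, so a library of egg-laying adults holds the mother's tissues, her germline and the embryos still inside her.

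The level of the targeted gene was examined first. In WBcel235, *par-1* (WBGene00003916) spans positions 14112033 to 14145367 of chromosome V on the minus strand and overlaps a second gene, AH10.4, on that strand. It took 125, 134 and 124 CPM (counts scaled to library depth) in *par-1* RNAi libraries 1, 2 and 3, against 158, 162 and 155 CPM in control libraries 1, 2 and 3. On this scale the *par-1* RNAi and control groups did not overlap. In *pos-1* RNAi libraries 1, 2 and 3, *par-1* took 163, 111 and 149 CPM. Thus *pos-1* RNAi library 2 lay below all 3 *par-1* RNAi libraries. In the authors' normalized counts, which also allow for transcript length, *par-1* had 990, 1333 and 1011 under *par-1* RNAi, against 1236, 1241 and 1190 in the control, so that the groups overlapped and the library labelled *par-1* RNAi replicate 2 lay above every control. The fitted log2 fold change was -0.13 ± 0.17 (SE), with an adjusted p of 0.692, so a lower *par-1* level was not detected by the test. Reads given to 3 short *par-1* transcripts numbered 0, 59.0 and 43.5 in the *par-1* RNAi libraries and 0 in every control. All *par-1* reads numbered 809 in library 2 and 590 in library 3. Whether the reads of the short transcripts come from the fed double-stranded RNA was not tested. If they do, neither the 1333 of library 2 nor the 1011 of library 3 is the level of the worm's own messenger alone. The groups were thus apart in CPM and overlapped in normalized counts, so the *par-1* level gives no clear check of the 3 *par-1* RNAi labels. *pos-1*, the target of the other treatment, had 5502, 4817 and 5797 normalized counts under *par-1* RNAi and 6425, 6257 and 6236 in the control, far above the 632, 415 and 515 in the *pos-1* RNAi libraries.

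The library labelled *par-1* RNAi replicate 2 (library 2 in what follows) stood apart from the other 5. Over the 9918 genes with a mean of at least 20 normalized counts in JU1088, the root mean square log2 difference was 0.361 between *par-1* RNAi libraries 1 and 3, but 0.525 and 0.534 between library 2 and these. Library 2 lay 0.815 to 0.864 from the controls, and *par-1* RNAi libraries 1 and 3 lay 0.541 to 0.618 from them. Pairs of controls differed by 0.380 to 0.441. All 3 *par-1* RNAi libraries were thus farther from every control than the controls were from each other. Of 8217 genes with a mean of at least 50, library 2 was more than 2-fold above all 5 other libraries in 97 genes, whereas no other library was so in more than 4. Sample quality weights in limma voom, which have a mean near 1, were 0.543 for library 2 and 1.20 to 1.45 for the other 5. Its depth of 6032754 reads was the median of its group, whose range was 4742907 to 6662027 reads, against 4303679 to 7082661 reads in the control.

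**Figure D1:**
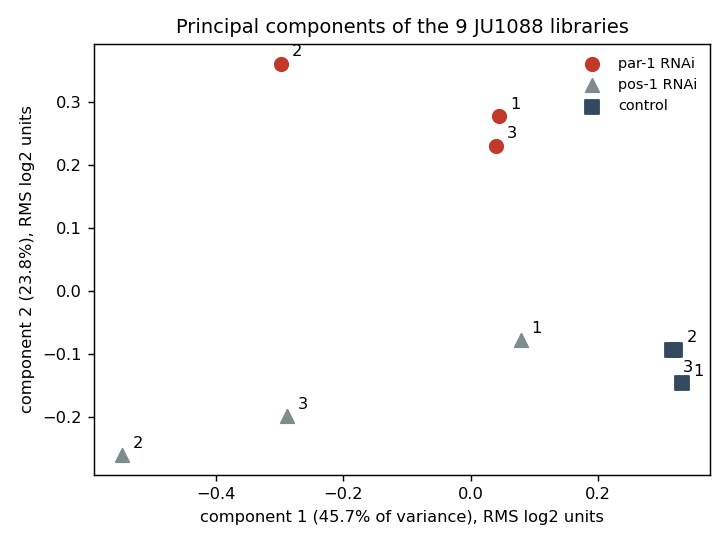
Scores of the 9 JU1088 libraries on the first 2 principal components of log2(normalized count + 1) over 9918 genes, in root mean square log2 units; digits are replicate numbers. The *par-1* RNAi libraries have the highest scores on component 2 (0.23 to 0.36), and library 2 lies at -0.30 on component 1, whereas *par-1* RNAi libraries 1 and 3 lie at 0.04.

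Markers of adult hermaphrodites were high in all 6 libraries. The yolk protein gene *vit-2* had 194850, 236239 and 215986 normalized counts under *par-1* RNAi and 158619, 180145 and 167871 in the control. *rme-2*, the yolk receptor of oocytes, had 8877, 6277 and 9068 under *par-1* RNAi and 10690, 10602 and 10371 in the control, so that it was lowest in library 2. The sperm markers *msp-3*, *msp-10*, *gsp-3* and *ssp-16* stayed between 0 and 16.5 normalized counts, and the male markers *lov-1*, *pkd-2* and *cwp-2* between 0 and 2.23. Of the body wall muscle markers, *unc-54* had 15919, 14313 and 16777 under *par-1* RNAi and 15004, 15463 and 16994 in the control. In whole worms, fewer cells of a type and less RNA per cell cannot be told apart.

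With all 6 libraries, 1461 of 18581 genes tested were higher under *par-1* RNAi than in the control (7.86%) and 119 were lower (0.64%), together 8.5%. A call needed more than a 1.5-fold difference and, in the quasi-likelihood test of edgeR, a Benjamini-Hochberg adjusted p below 0.1 over all genes tested. Calls were 92.5% in the higher direction, a share that depends on the fold minimum. At the same adjusted p with no fold minimum, 1799 genes were higher and 1071 lower. The median log2 fold change was 1.41 over the genes called higher and -0.98 over those called lower, beside 0.03 over all genes tested. More than 2-fold changes were found for 1028 of the 1461 genes higher and for 56 of the 119 lower. In 1336 of the 1461 and 107 of the 119 genes, the 3 *par-1* RNAi libraries did not overlap the 3 controls. Over all 18580 genes with a normalized count, 16.3% lay wholly above and 13% wholly below the controls. At 3 libraries against 3, the smallest p an exact permutation test of a single gene can reach is 0.1.

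Library 2 carried much of the number of calls. Without it, 559 genes were called higher (3.02% of 18538 genes tested) and 52 lower (0.281%), together 3.3%. Of the 1461 genes called higher, 549 (37.6%) were still called, and of the 119 called lower, 43 (36.1%). Of the 912 genes that lost the call, 743 were still more than 1.5-fold higher without library 2 and 611 had an unadjusted p under 0.05. These genes had been called in a fit that holds libraries 1 and 3, so their direction without library 2 was largely set by that choice and is given as a description. The largest unadjusted p that met the adjusted threshold was 0.0154 with all libraries and 0.00491 without library 2. DESeq2, run as a second tool, gave 1400 higher and 117 lower genes with all libraries and 572 higher and 52 lower without library 2.

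No other library had this weight. Leaving out *par-1* RNAi library 1 gave 1448 higher and 147 lower genes, and leaving out *par-1* RNAi library 3 gave 1532 higher and 140 lower. Of the 1461 genes called higher with all libraries, 1255 were called without library 1 and 1325 without library 3. Leaving out a control cost more than leaving out *par-1* RNAi library 1 or 3: 978, 1055 and 1027 genes were called higher without control 1, 2 and 3. When the 6 libraries were fitted alone, so that the other groups did not add to the estimate of the spread, 1354 genes were called higher with library 2 and 926 without it.

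**Figure D2:**
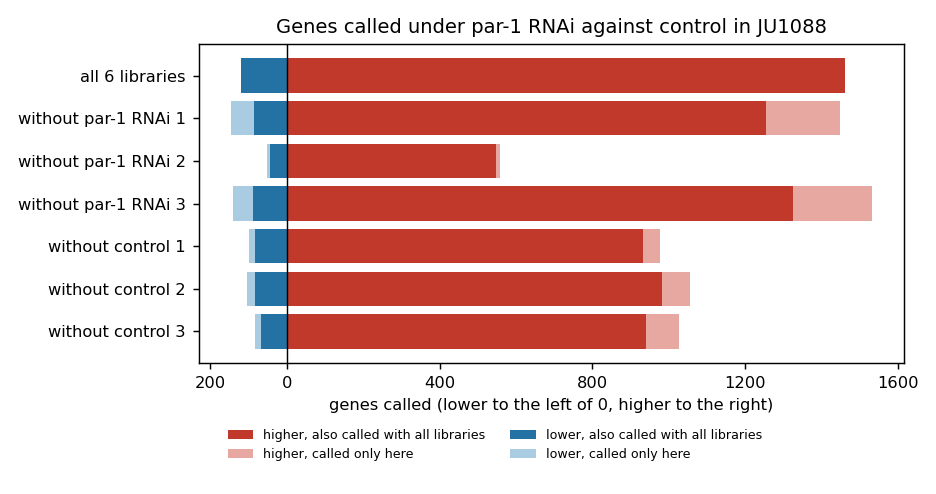
Genes called higher (right of 0) and lower (left of 0) under *par-1* RNAi than in the control, with all 6 libraries and with each left out in turn; dark bars are genes also called with all libraries. The bar without *par-1* RNAi library 2 holds 559 genes higher and 52 lower, fewer than any other.

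The size of the response differed between the 3 *par-1* RNAi libraries. Over the 1461 genes called higher, the median log2 ratio to the control mean was 1.16 in *par-1* RNAi library 1, 1.67 in library 2 and 1.07 in library 3. Library 2 was the farthest from the control in 1102 of these genes (75.4%). The medians were 1.37, 1.58 and 1.27 in the 549 genes that kept the call and 1.06, 1.75 and 0.94 in the 912 that lost it, a wider gap that follows from splitting the genes by what happens without library 2. All 3 libraries were past 1.5-fold in 1069 of the 1461 genes, and library 2 alone in 91. By level, of 667 genes called higher with a mean of at least 50 normalized counts 350 (52.5%) kept it, and of the other 794 genes 199 (25.1%). In the lower direction library 2 was farthest in 59 of 119 genes, with median log2 ratios of -0.87, -1.23 and -0.92.

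**Figure D3:**
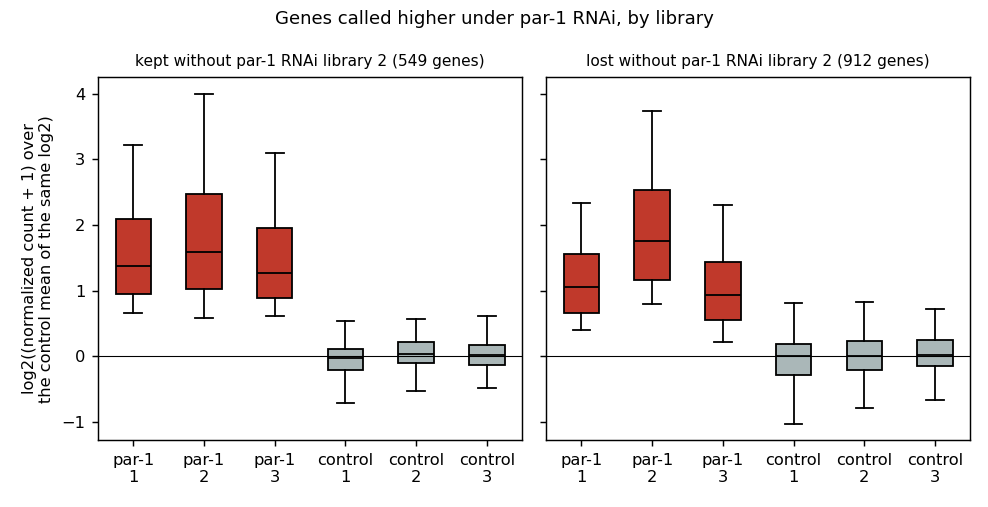
Log2 ratio of each library to the mean of the 3 controls for the genes called higher under *par-1* RNAi, on log2(normalized count + 1); boxes span the quartiles, lines inside are medians, and whiskers reach the 5th and 95th percentiles over genes. Library 2 has medians of 1.58 in the 549 genes that kept the call without it and 1.75 in the 912 that lost it; the split itself rests on library 2, so the contrast between the panels is a description.

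The genes with the smallest p were called with and without library 2. They were picked here after their values were seen, as were *lec-6*, *elt-2*, *end-1*, *noah-1*, *mlt-11*, *dpy-17*, *sqt-3*, *col-19*, *icl-1*, *aqp-1*, *haf-6*, *sid-2*, *hrg-3*, *cpr-4* and *swt-6* further on, and the other genes followed a rule on size and p. Of the pud genes, named for proteins more abundant in *daf-2* insulin receptor mutants, *pud-1.1* had 2487, 3555 and 2810 normalized counts under *par-1* RNAi against 446, 497 and 384 in the control, a log2 fold change of 2.75 ± 0.18 (adjusted p 1.39e-09, and 1.13e-08 without library 2). *pud-3* had 1648, 3143 and 2213 against 219, 261 and 226. *pud-1.2* and the 2 copies of *pud-2.2* moved in the same direction, and since the copies of *pud-2.2* hold equal values, reads of such near-identical genes cannot be assigned to a single copy. *pud-4*, among the genes with the widest rise, had 657, 1767 and 863 under *par-1* RNAi and 55.8, 101 and 92.0 in the control. *lec-6*, a galectin, had 3358, 3459 and 3084 against 1358, 1332 and 1407 (log2 fold change 1.28 ± 0.15), and its *par-1* RNAi libraries were close together.

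Genes of embryonic cell fate were among those higher. Of 24 transcription factors of mid embryogenesis, 11 were called higher (45.8%) and 0 lower, with a median log2 fold change of 0.98. Without library 2, 5 were called (median 0.67). Counts of this and the following lists are to be read beside all genes tested: 7.86% higher and 0.64% lower. Without library 2, these shares were 3.02% and 0.281%. *pha-4*, the FoxA factor that gives pharynx cells their identity, had 204, 342 and 198 normalized counts under *par-1* RNAi, against 48.2, 49.6 and 58.4 in the control. Its log2 fold change was 2.25 ± 0.34 (adjusted p 3.45e-05), and 1.94 without library 2 (adjusted p 0.000957). All 3 *par-1* RNAi libraries thus stood well clear of the controls for *pha-4* (chromosome V, 20753052 to 20760317). *hlh-14*, an achaete-scute factor of neuroblasts, had 36.5, 55.8 and 26.3 against 8.83, 3.00 and 8.73. *unc-120*, the serum response factor of muscle, had 69.3, 133 and 66.9 against 45.4, 35.8 and 36.4, and its log2 fold change of 1.21 became 0.81 without library 2, still called (adjusted p 0.0324). The gut factor *elt-2* had 72.4, 91.4 and 66.6 against 79.5, 97.1 and 64.2, and the groups overlapped.

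Of 60 genes first transcribed in the early embryo, 14 were called higher (23.3%) and 1 lower, with a median of 0.36. Without library 2, 5 were higher and 1 lower. The T-box genes *tbx-37* and *tbx-38* act redundantly in blastomere ABa descendants that make the anterior pharynx. *tbx-38* had 30.4, 50.6 and 25.4 normalized counts under *par-1* RNAi against 7.08, 2.96 and 12.1 in the control, and *tbx-37* had 33.1, 37.5 and 15.6 against 9.70, 1.51 and 6.43. Both kept the call without library 2 (adjusted p 0.0165 for *tbx-38* and 0.0247 for *tbx-37*). These levels are low, and the 2 genes are close copies whose reads may be shared. The gene called lower was *end-1*, a GATA factor of the endoderm, with 0, 1.24 and 0 under *par-1* RNAi and 8.85, 6.01 and 4.37 in the control, a matter of few reads.

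Some histone genes were higher. Of 69 his genes tested, 10 were called higher (14.5%) and 0 lower, with a median of 0.39, and 2 were called without library 2. The most abundant of those named, the linker histone gene *his-24*, had 1080, 3135 and 1296 normalized counts under *par-1* RNAi, against 145, 321 and 290 in the control. Its log2 fold change of 2.87 ± 0.45 became 2.24 without library 2 (adjusted p 5.49e-05 and 0.00207). The core histone genes are present in many near-identical copies: *his-15* shares its values with 2 other genes, and its 5.49, 5.02 and 3.24 against 1.77, 0 and 0 stand for few reads. *hil-7*, a histone H1-like gene, had 110, 264 and 58.6 against 7.83, 11.8 and 13.0 (log2 fold change 3.68 ± 0.89), and its call was kept narrowly without library 2 (adjusted p 0.091).

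Part of the genes of molting and the apical extracellular matrix were higher. The list of molting enzymes and cuticlins had 22 of 71 members higher and 0 lower (31.0%, median 0.87), and 6 of the 22 kept the call without library 2 (median 0.55), beside 37.6% kept over all genes called higher. By library, the median log2 ratio of the list was 0.64, 1.09 and 0.52. *cutl-16*, a cuticlin-like gene, had 88.9, 157 and 53.1 normalized counts under *par-1* RNAi against 11.9, 7.41 and 7.85 in the control, and kept its call (adjusted p 0.000191, and 0.0042 without library 2). *noah-1*, a component of the larval and embryonic outer matrix, had 275, 721 and 323 against 110, 110 and 146. Its log2 fold change of 1.84 (adjusted p 0.0404) fell to 1.27 without library 2 (adjusted p 0.351), so the call was lost although all 3 libraries stood above the controls. *mlt-11*, a protease inhibitor needed for molting, had 143, 373 and 132 against 17.7, 61.9 and 58.0, and lost its call in the same way (adjusted p 0.0741 and 0.429).

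Cuticle collagens were called in both directions, with a share of higher calls below that of all genes tested. Of 154 col, dpy, sqt and related genes tested, 6 were called higher (3.9%) and 8 lower, with a median of 0.02. Over all genes tested, 7.86% were called higher and 0.64% lower. Without library 2, 0 collagens were higher and 1 lower. That gene was *col-135*, with 97.0, 108 and 79.3 normalized counts under *par-1* RNAi against 381, 444 and 419 in the control (log2 fold change -2.11 ± 0.32, adjusted p 4.08e-05, and 0.000516 without library 2). The collagens *dpy-17* and *sqt-3* were high in library 2: *dpy-17* had 216, 713 and 230 against 68.8, 63.6 and 92.5, and *sqt-3* had 223, 659 and 173 against 92.5, 70.3 and 105. Both were called with library 2 and not without it (adjusted p 0.407 and 0.558). The adult collagen *col-19* had 7434, 5309 and 6718 under *par-1* RNAi and 8512, 8575 and 9485 in the control, lowest in library 2.

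Part of the defence genes of the intestine were higher. Of 40 CUB-like and infection response genes, 14 were called higher and 0 lower (35.0%, median 1.19), and 9 of the 14 were called without library 2 (median 1.13). The median log2 ratio of the list was 1.30, 1.32 and 0.64 by library, so that *par-1* RNAi library 1 was as far from the controls as library 2. *dod-24*, a CUB-like gene, had 60.9, 41.2 and 40.7 normalized counts under *par-1* RNAi against 1.93, 4.51 and 8.40 in the control, with the highest value in library 1. The log2 fold change was 3.09 ± 0.44 (adjusted p 1.36e-05) and 3.19 without library 2. F55G11.8 had 112, 106 and 83.7 against 20.5, 31.8 and 19.4, and its 3 *par-1* RNAi libraries were close together. 

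Among 42 lysozyme and saposin genes, 14 were higher and 0 lower (33.3%, median 0.76), and 7 of these without library 2. The lysozyme gene *lys-2* had 2249, 1481 and 1763 normalized counts under *par-1* RNAi, against 660, 639 and 675 in the control. Library 2 was the lowest of its group, and the log2 fold change of 1.48 ± 0.22 became 1.61 without it. *spp-5*, a saposin-like pore-forming peptide, had 2618, 2817 and 2627 against 1535, 1649 and 1615 (log2 fold change 0.75 ± 0.09, adjusted p 1.01e-06). Of 24 aspartyl and cathepsin protease genes, 5 were higher (20.8%) and 2 lower. Of these, *asp-14* had 202, 161 and 193 against 52.6, 42.9 and 50.4.

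C-type lectins changed in both directions. Of 176 tested, 26 were called higher (14.8%) and 3 lower (18 and 2 without library 2), while the median of the list was 0.13. *clec-266* had 679, 1304 and 647 normalized counts under *par-1* RNAi against 56.9, 88.3 and 76.8 in the control, a log2 fold change of 3.56 ± 0.51. The neighbours *clec-222* and *clec-223* on chromosome V (11271351 to 11272467 and 11273148 to 11278161) were both lower. *clec-222* had 79.3, 82.9 and 50.1 against 194, 197 and 231, and *clec-223* had 340, 433 and 341 against 1110, 1068 and 1049. Their log2 fold changes of -1.53 ± 0.17 and -1.53 ± 0.19 became -1.65 for each without library 2, with both calls kept.

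Other stress lists were read beside the 37.6% of all genes called higher that kept the call without library 2. The pals genes are a family expanded in nematodes and induced by viral and microsporidian infection. Of these, 7 of 32 were higher (21.9%, median 1.34), and 2 of 32 without library 2 (median 0.49). *pals-33* had 5.78, 27.5 and 1.68 normalized counts under *par-1* RNAi against 1.89, 1.46 and 2.14 in the control, so that library 3 lay within the controls, and the call was lost without library 2 (adjusted p 0.027 and 0.624). Of 43 genes of epidermal antimicrobial peptides, 5 were higher (11.6%) and 1 lower, and 0 of either without library 2. *nlp-29*, induced by wounding and fungal infection, had 61.0, 123 and 72.8 against 30.7, 36.1 and 37.6, above the controls in all 3 libraries but not called without library 2 (adjusted p 0.046 and 0.357), nor without control 1, 2 or 3. F-box and MATH genes had 59 of 372 higher (15.9%) and 0 lower (median 0.52), and 16 without library 2. 

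Genes of xenobiotic metabolism moved in both directions. Of 73 cytochrome P450 genes, 16 were higher (21.9%) and 0 lower (median 0.63), and 3 without library 2. *cyp-14A5* had 149, 141 and 210 normalized counts under *par-1* RNAi against 53.6, 36.5 and 40.0 in the control (log2 fold change 1.95 ± 0.27), with library 2 the lowest of its group. *cyp-34A9* had 85.0, 542 and 121 against 109, 34.7 and 33.4, and its log2 fold change of 2.47 became 1.17 without library 2 (adjusted p 0.0734 and 0.611), with control 1 inside the *par-1* RNAi group. Of 113 UDP-glucuronosyltransferase and glutathione S-transferase genes, 15 were higher (13.3%) and 7 lower, and 4 of each without library 2. *gst-22* had 82.4, 58.9 and 62.4 against 14.4, 21.3 and 21.1, and *ugt-12* had 497, 418 and 432 against 824, 699 and 707.

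Genes of fat use differed among themselves. Of 70 lipid metabolism genes, 9 were higher (12.9%, beside 7.86% of all genes tested) and 1 lower, with a median of 0.13. Without library 2, 3 were higher and 1 lower, beside 3.02% of all genes tested that were higher. The median log2 ratio of the list was 0.16, 0.03 and 0.04 by library, so library 2 was not high over the list. Single members were: *acs-2*, an acyl-CoA synthetase of mitochondrial fat oxidation that is induced by fasting, had 77.3, 492 and 74.6 normalized counts under *par-1* RNAi against 27.6, 16.1 and 13.5 in the control. Its log2 fold change of 3.57 ± 0.92 (adjusted p 0.01) became 2.05 without library 2 (adjusted p 0.295), so libraries 1 and 3 stood above the controls but did not carry a call. The lipase gene *lipl-2* had 57.2, 368 and 63.7 against 46.9, 38.9 and 30.8, and *icl-1*, the glyoxylate cycle enzyme that turns fat into sugar, had 1408, 6867 and 1510 against 895, 763 and 687. For *acdh-2*, an acyl-CoA dehydrogenase gene, the 3 libraries were alike instead, with 2.72, 3.47 and 3.18 against 157, 93.1 and 98.4. This was the widest fall of the genes named (log2 fold change -5.13 ± 1.12, and -5.23 without library 2). Its *par-1* RNAi values stand for few reads, so neither their likeness nor the exact size of the fall is well measured. *lbp-1*, a fatty acid binding protein gene, had 404, 584 and 445 against 219, 263 and 239 and kept its call (adjusted p 0.000535 and 0.0156).

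The 97 genes in which library 2 lay more than 2-fold above the other 5 libraries were read next. Of these, 69 were called higher with all libraries and 20 without library 2. Their median log2 ratio to the control was 1.08 in *par-1* RNAi library 1, 2.72 in library 2 and 1.06 in library 3. In *pos-1* RNAi libraries 1, 2 and 3 it was 0.61, 2.15 and 1.58. The 97 genes were chosen by their value in library 2. The loss of calls without it and its high ratio follow from that choice and are a description. T22F3.11, with the widest rise of the genes named, had 29.0, 2414 and 134 normalized counts under *par-1* RNAi against 9.27, 5.95 and 3.37 in the control. *fmo-2*, a flavin-containing monooxygenase induced by fasting and hypoxia, had 21.5, 674 and 20.0 against 2.10, 6.10 and 6.65, and *scl-2* had 66.2, 925 and 90.5 against 48.8, 55.3 and 31.9. In the *pos-1* RNAi libraries *fmo-2* had 6.36, 169 and 90.3 and *scl-2* had 106, 1236 and 974. In some genes library 2 alone was high. *aqp-1*, an aquaglyceroporin, had 115, 362 and 120 under *par-1* RNAi and 120, 110 and 112 in the control, and its call (log2 fold change 0.82, adjusted p 0.0519) was lost without library 2 (0.05, adjusted p 0.996). The ABC transporter gene *haf-6* had 234, 687 and 209 against 282, 267 and 240, and was not called.

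Other genes with a wide rise were raised in all 3 libraries. The rule that named them took only genes whose 3 *par-1* RNAi libraries did not overlap the controls. That all 3 were raised follows from this choice and is a description. R09E10.5 had 136, 454 and 109 normalized counts under *par-1* RNAi against 5.92, 1.49 and 6.70 in the control, a log2 fold change of 5.58 ± 1.04 that became 4.65 without library 2 (adjusted p 0.000515 and 0.0114). The alcohol dehydrogenase gene *adh-1* had 1099, 5487 and 1790 against 137, 191 and 105, and kept its call without library 2 (log2 fold change 4.29 and 3.33, adjusted p 0.021). *igcm-1*, of the immunoglobulin cell adhesion family, had 99.9, 201 and 64.3 against 3.86, 10.5 and 11.2. T02E9.5 had 238, 535 and 169 against 19.4, 33.0 and 20.7. In each of these 4 genes library 2 was the highest, and the lowest *par-1* RNAi library was still several-fold above the highest control.

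**Figure D4:**
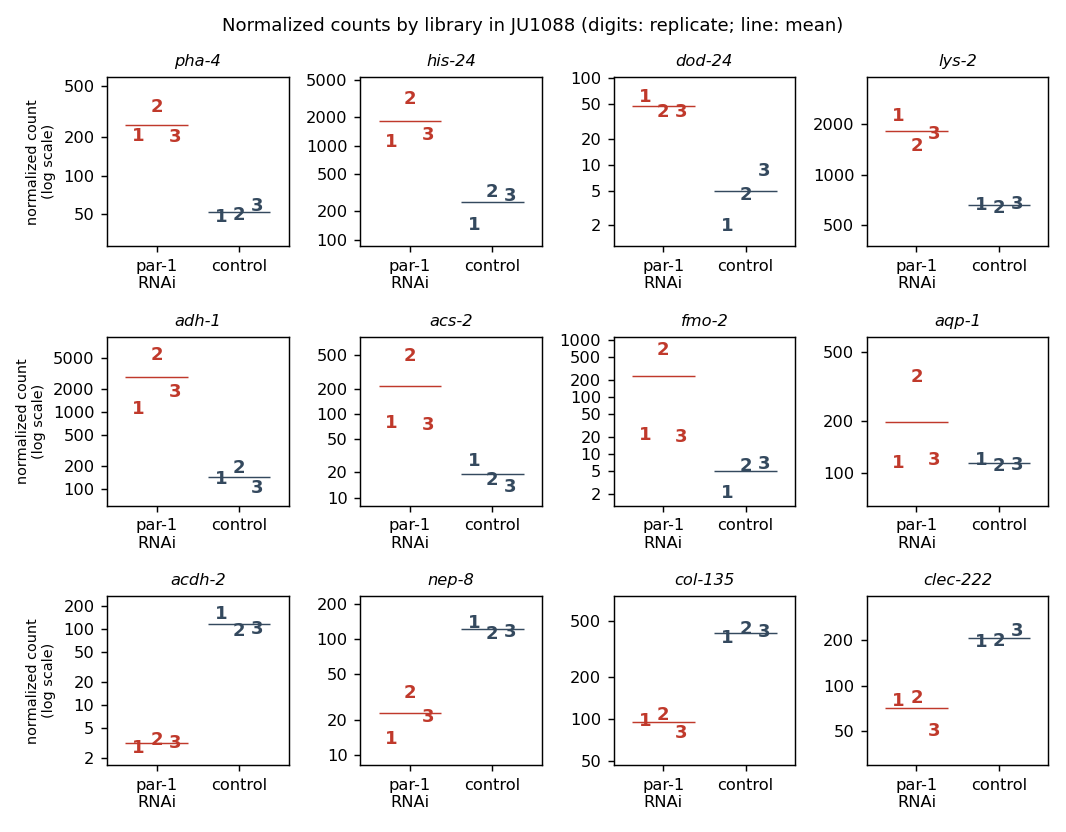
Normalized counts (log scale) of 12 genes in the 3 *par-1* RNAi and 3 control libraries of JU1088; digits are replicate numbers and lines are means. Library 2 is far above its group in *acs-2*, *fmo-2* and *aqp-1*, within or near its group in *dod-24*, *lys-2*, *acdh-2*, *nep-8*, *col-135* and *clec-222*, and at the top of a raised group in *pha-4*, *his-24* and *adh-1*.

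Nerve and signalling genes were called at shares near that of all genes tested (7.86%). Of 85 ciliated neuron genes, 8 were higher (9.41%) and 0 lower (median 0.32), and 1 without library 2. *dyf-7*, a zona pellucida protein that anchors the tips of sensory dendrites, had 25.8, 78.3 and 35.0 normalized counts under *par-1* RNAi against 13.0, 10.7 and 12.0 in the control. Of 69 neuropeptide genes, 7 were higher (10.1%, median 0.34), and 2 without library 2, the insulin-like peptides *ins-2* (22.9, 39.2 and 14.6 against 3.62, 2.85 and 1.10) and *ins-7* (10.8, 19.7 and 23.2 against 4.12, 3.14 and 4.25). Of 75 hedgehog-related and patched-related genes, 4 were higher, and 0 without library 2. The 27 muscle genes had 0 calls and a median of 0.06, and of 60 heat shock and unfolded protein response genes, 2 were higher and 1 lower. The chaperone genes *dnj-27* (377, 467 and 323 against 242, 223 and 230) and *hsp-43* (767, 559 and 590 against 356, 371 and 343) kept their calls, and *hsp-60*, the mitochondrial chaperonin gene, with 2924, 1875 and 2857 against 4217, 3939 and 4169, was lowest in library 2 and lost its call without it.

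Polarity and maternal germline genes were not called, though most had a log2 fold change below 0. In the lists of 15 polarity genes, 26 maternal RNA-binding proteins, 14 germ granule genes and 18 oocyte and eggshell genes, 0 members were called in either direction. Their medians were -0.13, -0.28, -0.26 and -0.29, and -0.10, -0.19, -0.21 and -0.17 without library 2. Members with a log2 fold change above 0 numbered 2, 0, 0 and 2, beside 52.1% of all genes tested. By library, the median log2 ratio of the oocyte and eggshell list was -0.18, -0.49 and -0.18, so library 2 was again the farthest. *cbd-1*, a chitin-binding eggshell protein, had 23595, 17631 and 24245 normalized counts under *par-1* RNAi, against 28359, 27774 and 27114 in the control (log2 fold change -0.34 ± 0.11, adjusted p 0.0339), so the test was passed but not the fold minimum. *glh-1*, the Vasa helicase of P granules, had 3181, 2212 and 3019 against 3863, 3479 and 3974 (adjusted p 0.0912). *nmy-2* of the polarity list (adjusted p 0.0346) and *cgh-1* of the RNA-binding list (adjusted p 0.0376) also passed the test alone. Without library 2 the adjusted p was 0.364 for *cbd-1*, 0.489 for *glh-1* and 0.257 for *nmy-2* and *cgh-1*. The 6 vitellogenin genes had a median of 0.32 and 0 calls, and the 81 ribosomal protein genes a median of -0.14 and 0 calls. Of 81 sperm genes 0 were higher and 1 lower, and of 9 male genes 0 were called. Whether a smaller share of germline RNA in library 2 plays a part in its higher counts of other genes was not tested.

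The RNAi pathway itself gave 1 call among 59 genes tested, with a median of -0.15. *sago-2*, a secondary Argonaute that binds amplified small RNAs, had 177, 124 and 174 normalized counts under *par-1* RNAi against 47.2, 81.2 and 88.5 in the control. Library 2 was the lowest of its group, and the log2 fold change of 1.10 ± 0.30 (adjusted p 0.0133) became 1.25 without it (adjusted p 0.0218), while the call was lost without control 1. The double-stranded RNA importer gene *sid-2* had 106, 66.4 and 94.0 against 76.2, 50.7 and 73.8, and passed the threshold without library 2 but not with it (log2 fold change 0.59 and 0.41).

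Fewer genes were lower, 119 with library 2 and 52 without it. *nep-8*, a neprilysin-type peptidase gene, had 13.7, 33.9 and 21.2 normalized counts under *par-1* RNAi against 137, 111 and 115 in the control (log2 fold change -2.40 ± 0.39, and -2.80 without library 2). *amt-4*, an ammonium transporter gene, had 74.1, 101 and 84.8 against 285, 294 and 307. A pseudogene without a symbol, WBGene00012680, on chromosome V (19047047 to 19048669), had 624, 563 and 721 against 3066, 2998 and 2923. Of 9 genes called lower only when library 2 was left out, *hrg-3*, a secreted protein that carries heme from the intestine, had 27.2, 158 and 37.8 against 137, 151 and 116, so that library 2 lay at the level of the controls. A like pattern was seen in *cpr-4*, a cathepsin B gene, with 1584, 4086 and 1646 against 4005, 4143 and 4051, which was called with and without library 2 (adjusted p 0.0574 and 0.000671). In 2 of the genes with the widest fall the controls were spread. *cec-2*, a chromodomain gene, had 361, 373 and 361 against 1578, 467 and 1291, and its log2 fold change of -1.55 was -1.98 without control 2 and -1.25 without control 1. F21D5.3 had 74.8, 55.8 and 76.1 against 478, 106 and 130, and its call was lost without control 1 (log2 fold change -1.53 and -0.80).

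**Figure D5:**
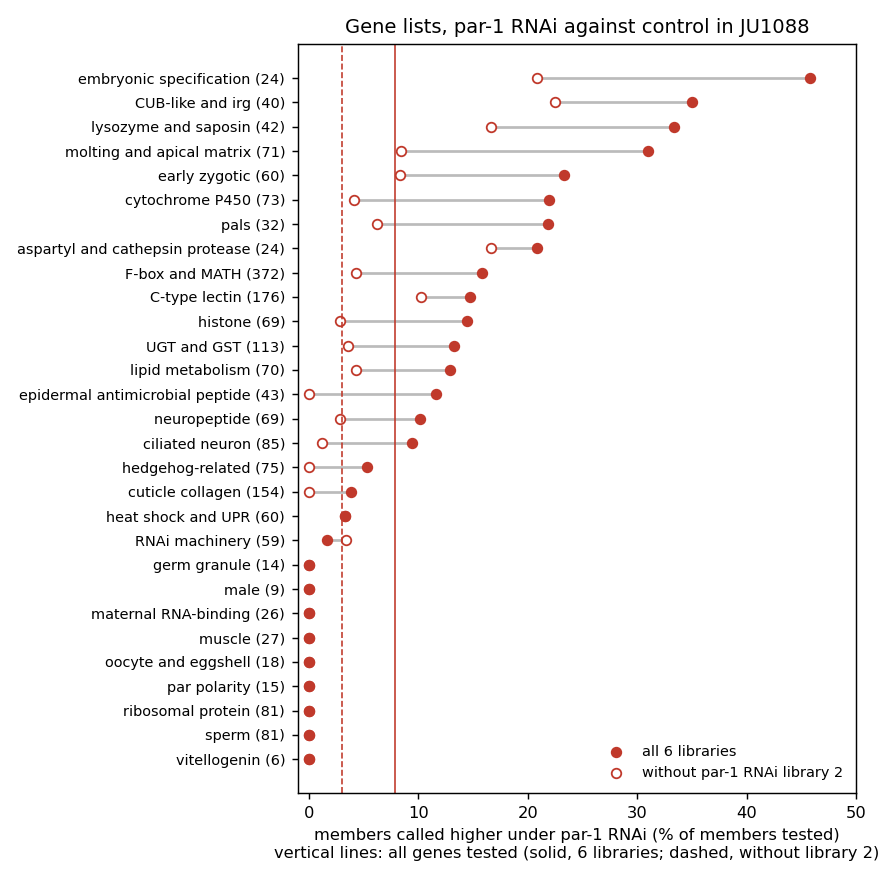
Percent of the tested members of 29 gene lists (number tested in parentheses) called higher under *par-1* RNAi than in the control, with all 6 libraries (filled) and without *par-1* RNAi library 2 (open); vertical lines give the percent of all genes tested, 7.86 (solid) and 3.02 (dashed). The embryonic specification list has the highest share with all libraries, 45.8%, and the lists of polarity, germline, vitellogenin, sperm, male, muscle and ribosomal genes are at 0.

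The *par-1* RNAi libraries were also set against the 3 *pos-1* RNAi libraries of JU1088. Here 1114 genes were higher under *par-1* RNAi (6%) and 201 lower (1.08%). The *pos-1* RNAi group has its own library apart, replicate 2, and without library 2 of each group the sum of calls fell to 455, against 1315 with all. It was 962 without *par-1* RNAi library 2 alone and 886 without *pos-1* RNAi library 2 alone. Part of the fall to 455 may come from fewer libraries in both groups, which was not tested. The values that follow are from the fit with all libraries. *pha-4*, for which the *pos-1* RNAi libraries had 59.5, 97.3 and 48.6 normalized counts, was higher under *par-1* RNAi by a log2 fold change of 1.81 (adjusted p 0.000238). The *pud-4* gene, with 377, 1413 and 718 under *pos-1* RNAi, gave a log2 fold change of 0.35 (adjusted p 0.634). Of the CUB-like and infection response list 17 of 40 were higher under *par-1* RNAi than under *pos-1* RNAi, with a median of 1.21, and *lys-2* had 681, 342 and 527 under *pos-1* RNAi (difference 1.83 on the log2 scale, adjusted p 5.36e-07). Cuticle collagens had 35 of 154 higher and 2 lower with a median of 0.97, beside 6 higher and 8 lower against the control. *clec-222*, at 230, 295 and 238 under *pos-1* RNAi, was lower under *par-1* RNAi by -1.85 on the log2 scale (adjusted p 4.97e-10). *swt-6*, of the SWEET sugar transporter family, was higher with 233, 89.9 and 115 under *par-1* RNAi against 20.0, 7.26 and 7.13 under *pos-1* RNAi and 22.8, 15.9 and 31.3 in the control.

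The response was then compared with that of the other 4 strains, each with its own controls. The same rule called 159 genes higher and 56 lower in N2, 396 and 47 in EG4348, 731 and 87 in CB4856, and 843 and 113 in QX1211. In JU1088 it called 1461 and 119 with all libraries, and 559 and 52 without library 2. Without library 2, JU1088 thus had fewer calls than CB4856 and QX1211 had with all their libraries. The difference itself, the log2 fold change in JU1088 minus the mean of the other 4, passed an adjusted p of 0.1 for 10 genes higher (0.0538%) and 1 lower (0.00538%), together 0.0592%, and 1347 genes had an unadjusted p under 0.05. Without library 2, 0 genes passed, with 673 at an unadjusted p under 0.05, and DESeq2 without library 2 gave 6. Without JU1088 control 1, 0 genes passed as well, with 1113 at an unadjusted p under 0.05. *octr-1*, an octopamine receptor of neurons, had 23.4, 27.2 and 26.3 normalized counts under *par-1* RNAi against 6.10, 4.44 and 7.51 in the control of JU1088. Its log2 fold change was 2.05 in JU1088 and -0.43, 0.58, 0.11 and -0.32 in N2, EG4348, CB4856 and QX1211. *ceh-32*, a Six-family homeobox gene of the head, had 256, 488 and 256 against 58.2, 62.1 and 37.8, a log2 fold change of 2.69 in JU1088 beside 0.50, 0.87, 1.30 and 1.09 in the others. Other genes had the same sign in all 5 strains: for *asp-14*, with an adjusted p below 0.1 in each, the log2 fold change was 1.93 in JU1088 and 2.62, 1.97, 1.92 and 1.82 in N2, EG4348, CB4856 and QX1211, and for *nep-8* it was -2.40 and -4.01, -2.30, -1.65 and -3.04.

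By position and kind, the genes called higher were spread over all chromosomes. The X chromosome held 286 of the 1461 (19.6%) and 14.1% of all genes tested, and chromosome V held 38 of the 119 genes called lower (31.9%) and 21.9% of those tested. Protein-coding genes made up 96.3% of the higher calls and 92.5% of the genes tested. The genes called higher had a median of 43.2 normalized counts over the 6 libraries, the genes called lower 72.0, and all genes tested 28.5. No test was made of these shares.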

How the data were processed

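RNA of whole worms was sequenced single-end from a directional library kit. Per the methods and processing notes, the authors trimmed reads with Trimmomatic 0.3.9 and ran Salmon 1.4.0 on a transcriptome made for each strain (WBcel235, release WS276, with that strain's variants). The processing notes also name Salmon 1.3.0. The deposited files hold estimated counts (whole or fractional reads) and TPM per transcript for each library. TPM were not analysed further. A deposited table of 18589 genes holds counts normalized by the authors with DESeq2 1.32.0 (gene counts divided by factors for depth and transcript length, a signal that is not raw counts), and its values are those printed per library. All its columns were mapped (0 unmapped).

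Transcripts were summed to genes by name: of 65173, 58519 matched exactly, 6635 by sequence name and 19 not at all. Estimated counts were rounded to whole reads and fitted with edgeR 4.0.16 (R 4.3.3, quasi-likelihood test) in 1 model of 15 group means over 45 libraries, with TMM factors, offsets for average transcript length and genes of at least 10 reads. A gene was called at a Benjamini-Hochberg adjusted p under 0.1 over all genes tested and a fold change above 1.5. The study used these values on DESeq2 fold changes after shrinkage, whereas the fold changes here are not shrunken. The difference from the other 4 strains had no fold minimum. The fit code was run on simulated counts of constant dispersion, without length offsets or a deviant library. That run is no check on the effect of library 2. Errors after ± are standard errors derived from the test, with n = 3 libraries a group. Each is the absolute log2 fold change divided by the square root of the F statistic. Ratios and distances used log2(normalized count + 1). Depth ranged from 4303679 to 7082661 reads over the 6 libraries, so genes of few reads have wide errors. Reads from near-identical copies (lectins, F-box, histone, P450 and pud genes) are split by Salmon and uncertain between copies.

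Named by rule were the targets, the 8 widest rises and 8 widest falls among genes called, not overlapping and averaging 50 or more normalized counts, 6 genes that moved most toward 0 without *par-1* RNAi library 2, and up to 3 called members with the smallest p in each of 29 lists (the highest member where none was called). Genes outside it are marked as picked after their values were seen. The members and lists were chosen with earlier results of these data known.

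Alternatives were each library left out, DESeq2 1.42.0, limma 3.58.1 voom with sample weights, other scaling, filters and fold minimum, no length offset, a replicate block and the 6 libraries alone. Fits of the 6 libraries alone and of DESeq2 without library 2, and of *par-1* against *pos-1* RNAi without library 2 of each, were added after seeing the data.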

Additional observations from a re-analysis of the deposited data

Results flagged for a closer look

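For 11 genes the log2 fold change of *par-1* RNAi over control in JU1088 differed from the mean of that in N2, EG4348, CB4856 and QX1211, by the edgeR test of the difference itself with adjustment over all genes tested. The difference was 2.06 for *octr-1* (adjusted p 0.0251), 1.75 for *ceh-32* (adjusted p 0.0516) and 1.65 for *igcm-4* (adjusted p 0.0462), an immunoglobulin-family gene that overlaps *smex-2* on the same strand. It was 2.63 for C45B11.6, with a fold change of 3.30 in JU1088 beside -0.11, 0.48, 1.19 and 1.15 in the other strains. Smaller differences were found for C14B9.2 (0.96), *sex-1* (0.86), a nuclear receptor gene of sex determination, H29C22.1 (0.79), *glit-1* (0.74), Y53H1B.2 (0.67) and ZK1127.3 (0.46). *cec-2* was the gene with a negative difference, -1.55, and its control 2 lay near the *par-1* RNAi libraries. Without *par-1* RNAi library 2 of JU1088 the adjusted p of these genes was 0.204 to 0.938, with a difference of 2.01 for *octr-1* and -1.57 for *cec-2*, and 0 genes passed. Leaving out JU1088 control 1 also left 0 genes.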

How the results depend on the processing

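Without *par-1* RNAi library 2, 611 genes were called in place of 1580, and leaving out single libraries gave 611 to 1672 (559 to 1532 higher, 52 to 147 lower). DESeq2 without library 2 called 624 genes, 572 higher and 52 lower, and the 6 libraries alone without it called 1044, 926 of them higher. With no fold minimum 2870 genes were called, 1071 of them lower. Against *pos-1* RNAi the 1315 calls became 455 without library 2 of each group and 2516 with no fold minimum. The 11 genes that differed from the other strains became 63 with DESeq2, 81 with voom weights, 25 with the replicate block and 0 to 18 with single libraries of the strains' *par-1* RNAi and control groups left out (21 without JU1088 *pos-1* RNAi library 2, which is in the fit but not in this comparison), among them 7 without EG4348 control 2 and 18 without EG4348 *par-1* RNAi library 3. Same-numbered *par-1* RNAi and control libraries of JU1088 had correlated deviations of 0.118, 0.051 and 0.066, each the highest of its library, so the numbers share at most a hint of pairing in the data, and the replicate block gave 1558 calls (1426 higher, 132 lower). Of 78 named genes called, 24 lost the call without library 2, 9, 8 and 8 without control 1, 2 and 3, 3 and 2 without *par-1* RNAi library 1 and 3, and 0 changed direction in any fit. The rule named 6 genes for moving most toward 0 without library 2 and others for a small p. These counts thus partly follow from that choice and are a description. Over all genes called, 912 of 1461 higher and 76 of 119 lower lost the call without library 2. The causes were not tested. With 3 libraries a group and 4303679 to 7082661 reads each, low genes carry wide errors, and the *par-1* level gives no clear check of the labels.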
